A study of Saccharomyces cerevisiae with 4 samples.

Results

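The genes described are 32 subunit genes of the yeast proteasome, its transcriptional regulator RPN4 and the polyubiquitin gene UBI4, chosen by their systematic names. They make up 34 of the 6207 reading frames measured, and 33 of them had a value on all 4 arrays, as did 4788 frames in all. The cells were Saccharomyces cerevisiae cultures in YEPD with a mutation in slt2, the gene of the MAP kinase of the cell wall integrity pathway, and each culture was divided in 2. One part was left untreated and the other received zymolyase 100T, a preparation that digests cell wall glucan, at 5 units per ml, and RNA of both parts was taken at 3 h. RNA from 2 cultures was compared on 4 two-colour DNA microarrays, with Cy3 and Cy5 exchanged between arrays. Treated and untreated cells share the slt2 mutation, whose allele and strain background the sources used here do not name, and no wild type group was analysed here.

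Each array therefore gives a ratio of treated to untreated RNA, or its inverse. Arrays 1 and 3 had the treated RNA in Cy3, arrays 2 and 4 had it in Cy5, and the values were turned so that all 4 arrays run the same way. Which dye is the numerator is not stated, so the direction with zymolyase is not settled. Values above 0 lie on the side of HSP12, a stress protein gene with a mean of 2.63, and values below 0 on the side of TIP1, a cell wall mannoprotein gene with a mean of -1.17. With Cy5 as the numerator the HSP12 side would mean less RNA with zymolyase, and with Cy3 more. The treated channel of array 3 is labelled wild type in 1 field and slt2 elsewhere. SLT2 itself had a value on 0 arrays, so the genotype was not checked, and results are also given without array 3. Base 2 is assumed for the logarithms.

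The proteasome is the protease that degrades proteins marked with ubiquitin. Its core particle is a barrel of stacked rings, with alpha subunits gating the entrance and beta subunits lining the chamber where peptide bonds are cut. The regulatory particle caps the barrel: its base holds a ring of ATPases that unfold substrates, and its lid carries the enzyme that removes ubiquitin. In budding yeast the genes of both particles are activated together by the transcription factor Rpn4, which the proteasome itself rapidly degrades. UBI4 encodes ubiquitin as a head-to-tail chain and is known as a stress-inducible source of it.

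The proteasome genes stayed close to 0 in this experiment, and the polyubiquitin gene lay furthest out. Of the 33 tested members 0 changed (limma, adjusted p under 0.05), where 4.55% of all tested frames did. At an unadjusted p under 0.05 there was 1 member, UBI4, against 11.5% of all frames. A mean of at least 0.5 in size was also reached by UBI4 alone, against 10.6% of all frames. The subunit means and that of RPN4 ran from -0.26 (PRE5) to 0.39 (RPN2), and 26 of the 33 members were under 0.2 in size. The median size was 0.11 for the members and 0.19 for all tested frames.

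These small means were measured with a wide error. In the model all tested members share a standard error of 0.24, so p-values and intervals follow from the mean and not from a gene's own spread. The counts by p, size and interval are therefore not separate results. The 95% interval reached 0.48 to each side of every tested member's mean. For 32 of the 33 members it lay within 1 of 0 on both sides, that is, within a 2-fold change either way. The same held for 90.5% of all tested frames. For UBI4 the interval passed that bound. With the larger p of both pairings of arrays, the smallest mean called anywhere in the table was 0.75 in size. Adjusted p-values of the members ran from 0.327 to 0.997, and the second lowest was 0.604, for RPN2.

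As a group the members had no settled side. Their median mean was -0.03, beside -0.06 for all tested frames, with 15 members above 0 and 18 below. After centring each array on its own median the members' median was 0.02, and without array 3 it was 0.01, so the sign of so small a median follows from the centring and the arrays used. The same side on all 4 arrays was taken by 3 members, PUP1, RPN3 and UBI4, against 30.3% of all frames. All 3 were on the HSP12 side, as were 11.8% of all frames. A mean at least as large as its own SD over the arrays was found for 2 members, and for 31.8% of all frames.

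**Figure D1:**
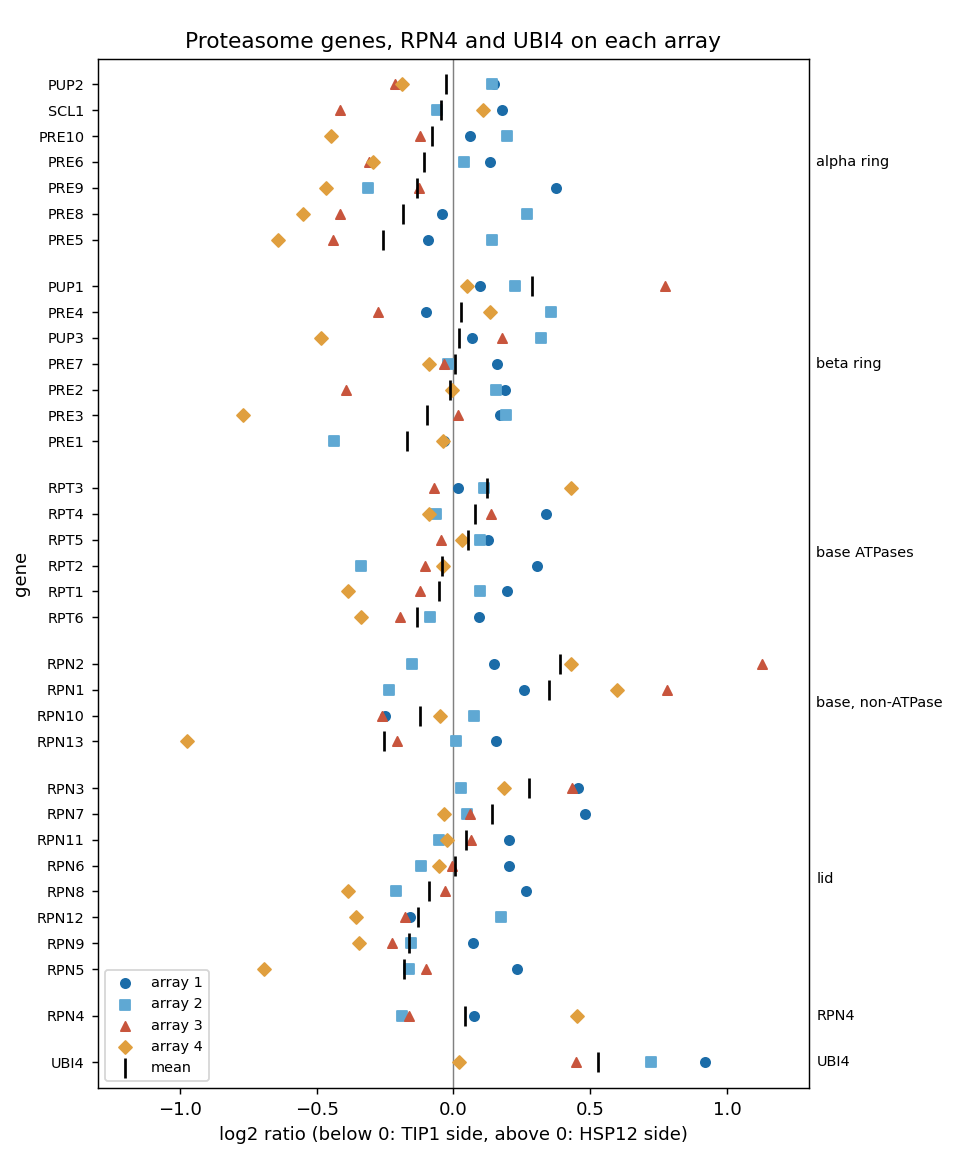
Log2 ratio of each of the 34 members on each of the 4 arrays (symbols) and the mean (vertical bar), grouped by place in the proteasome; above 0 is the HSP12 side. Array 1 lies mostly right of 0 (28 of 34 members), arrays 3 and 4 mostly left (10 of 33 and 10 of 34 to the right), and most rows straddle 0.

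RPN4 (YDL020C), the activator of the proteasome genes, was not called. Its values were 0.07, -0.19, -0.16 and 0.45 on arrays 1 to 4. It was above 0 on 2 arrays and below 0 on the other two, and the mean of 0.04 ± 0.30 (SD, n = 4) was smaller than its spread (limma adjusted p = 0.971). The 95% interval ran from -0.43 to 0.52. Without array 4, which held the largest value, the mean was -0.09.

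UBI4 (YLL039C) had the largest mean of the members. Its values were 0.92, 0.72, 0.45 and 0.02 on arrays 1 to 4, all on the HSP12 side, with array 4 close to 0. The mean was 0.53 ± 0.39 (SD, n = 4), a size of 1.44-fold, and the 95% interval ran from 0.05 to 1.01. This missed the threshold over all genes (limma adjusted p = 0.327), and 7.48% of tested frames lay further toward the HSP12 end. Without array 3 the mean was 0.55 and the limma adjusted p 0.594. Over the alternative settings that adjusted p ran from 0.00375 to 0.605, leaving aside the fit with arrays not turned. That fit holds the dye part of the values and does not test the treatment. Arrays 1 and 2 alone gave 0.82 and arrays 3 and 4 alone 0.23.

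The other genes that encode ubiquitin lay on the opposite side from UBI4. RPL40A and RPL40B each encode ubiquitin fused to a protein of the large ribosomal subunit, and RPS31 encodes it fused to a protein of the small one. RPS31 (YLR167W) had -0.27, -0.23, -0.51 and -1.02 on arrays 1 to 4, with a mean of -0.51 ± 0.36 (SD, n = 4). RPL40A (YIL148W) had -0.16, -0.18, -0.43 and -0.42, with a mean of -0.30 ± 0.15. RPL40B (YKR094C) had -0.60, -0.06, -0.30 and -0.16, with a mean of -0.28 ± 0.24. Of the 3 fusion genes 0 were called (lowest limma adjusted p 0.362). A mean below 0 was found for 57.5% of all tested frames. The same side on all 4 arrays was found for 30.3% counting both sides, of all frames, and for 11.8% on the HSP12 side. On each array all 3 fusion genes were below 0 and UBI4 above it. The ubiquitin stretches of these 4 genes are near-identical and the sources used here do not describe the spotted DNA, so their values are uncertain as gene-specific ones. Signal shared between their spots was not tested.

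In the alpha ring of the core particle, 7 of 7 gene means were below 0 (5 of 7 after centring each array, 6 of 7 after scaling, 5 of 7 without array 3) and 0 were called. They ran from -0.26 for PRE5 to -0.03 for PUP2, with a median of -0.11. PRE5 (YMR314W) had values of -0.09, 0.14, -0.44 and -0.64 on arrays 1 to 4, with a mean of -0.26 ± 0.35 (SD, n = 4). PUP2 (YGR253C) had 0.15, 0.14, -0.21 and -0.19. Both genes were lowest on arrays 3 and 4, and so was the ring: 0 of 7 genes lay on the HSP12 side on array 3 and 1 of 7 on array 4, against 5 of 7 on array 1 and 5 of 7 on array 2. Between them were PRE8 (YML092C) at -0.18, PRE9 (YGR135W), the one alpha subunit yeast can live without, at -0.13, PRE6 (YOL038W) at -0.11, PRE10 (YOR362C) at -0.08 and SCL1 (YGL011C) at -0.05. The means of arrays 1 and 2 alone were above 0 for 7 of 7 genes and those of arrays 3 and 4 alone below 0 for 7 of 7, so the ring's side was set by the pair of arrays. For comparison, 42.5% of all frames had a mean above 0.

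The beta ring held both a member on the HSP12 side on all arrays and several at 0. PUP1 (YOR157C), the subunit with trypsin-like activity, had 0.10, 0.22, 0.77 and 0.05 on arrays 1 to 4, with a mean of 0.29 ± 0.33 (SD, n = 4; limma adjusted p = 0.749). Its value on array 3 was far above the others, and without that array the mean was 0.12. PRE3 (YJL001W), the subunit with caspase-like activity, had 0.17, 0.19, 0.02 and -0.77, 3 values above 0 and a low one on array 4, for a mean of -0.10 ± 0.46. PRE2 (YPR103W), which carries the chymotrypsin-like activity, had 0.19, 0.16, -0.39 and -0.01 and a mean of -0.01. The 3 catalytic subunits thus had no common side. The non-catalytic members PRE4 (YFR050C), PUP3 (YER094C) and PRE7 (YBL041W) had means of 0.03, 0.02 and 0.00. PRE1 (YER012W) had no value on array 3 and was not tested with the others. It had -0.04, -0.44 and -0.04 on arrays 1, 2 and 4, and an adjusted p of 0.933 when frames with a value on 3 arrays were let into the limma fit.

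The 6 ATPases of the base had means between -0.13 and 0.12, a median of 0.00, and 3 on each side. The sides moved with the setting: 4 were above 0 after centring or scaling and 5 on arrays 1 and 2 alone. With the trend in coding length removed from each array 1 was above 0. The ATPases' median was then -0.07, beside -0.11 for all frames. RPT3 (YDR394W) had the highest mean, with 0.02, 0.11, -0.07 and 0.43 on arrays 1 to 4, and RPT6 (YGL048C) the lowest, with 0.09, -0.09, -0.19 and -0.34. Array 4 set them apart, since it held the highest value of RPT3 and the lowest of RPT6. RPT5 (YOR117W) had the smallest SD of all members, with 0.13, 0.10, -0.05 and 0.03 and a mean of 0.05 ± 0.08 (SD, n = 4). RPT4 (YOR259C) had a mean of 0.08, RPT2 (YDL007W) -0.04 and RPT1 (YKL145W) -0.05.

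The non-ATPase members of the base split into the large scaffold subunits and the small ubiquitin receptors. RPN2 (YIL075C), a scaffold of the base, had 0.15, -0.15, 1.13 and 0.43 on arrays 1 to 4, with a mean of 0.39 ± 0.55 (SD, n = 4; limma adjusted p = 0.604). RPN1 (YHR027C), the scaffold that docks ubiquitin shuttle proteins, had 0.26, -0.24, 0.78 and 0.60 and a mean of 0.35 ± 0.45 (limma adjusted p = 0.660). The 2 genes shared their pattern: highest on array 3, high on array 4, and below 0 on array 2. On arrays 1 and 2 alone their means were 0.00 for RPN2 and 0.01 for RPN1, against 0.78 and 0.69 on arrays 3 and 4. Without array 3 they were 0.14 and 0.21. The receptors lay on the other side. RPN13 (YLR421C) had 0.16, 0.01, -0.21 and -0.97 and a mean of -0.25 ± 0.50, resting on array 4, without which it was -0.01. RPN10 (YHR200W) had -0.25, 0.08, -0.26 and -0.05, with a mean of -0.12 ± 0.16.

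Of the 8 lid genes among the members, 4 had means above 0 and 4 below. RPN3 (YER021W), a structural lid subunit, had 0.45, 0.03, 0.43 and 0.19 on arrays 1 to 4, with a mean of 0.28 ± 0.21 (SD, n = 4; limma adjusted p = 0.759). Its 4 values were all on the HSP12 side and its mean was larger than its SD, but with the length trend removed the mean was 0.16 and array 2 lay at -0.02. RPN5 (YDL147W) was the lowest, with 0.23, -0.16, -0.10 and -0.69 and a mean of -0.18 ± 0.38, resting on array 4, without which it was -0.0098. RPN11 (YFR004W), the metalloprotease that cuts ubiquitin from substrates, stayed near 0 on 3 arrays, with 0.20, -0.05, 0.06 and -0.02. RPN8 (YOR261C), its partner, had 0.27, -0.21, -0.03 and -0.39 and a mean of -0.09. RPN7 (YPR108W) reached 0.48 on array 1 but lay between -0.03 and 0.06 elsewhere, giving a mean of 0.14. RPN6 (YDL097C) had a mean of 0.01, RPN12 (YFR052W) -0.13 and RPN9 (YDR427W) -0.16.

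**Figure D2:**
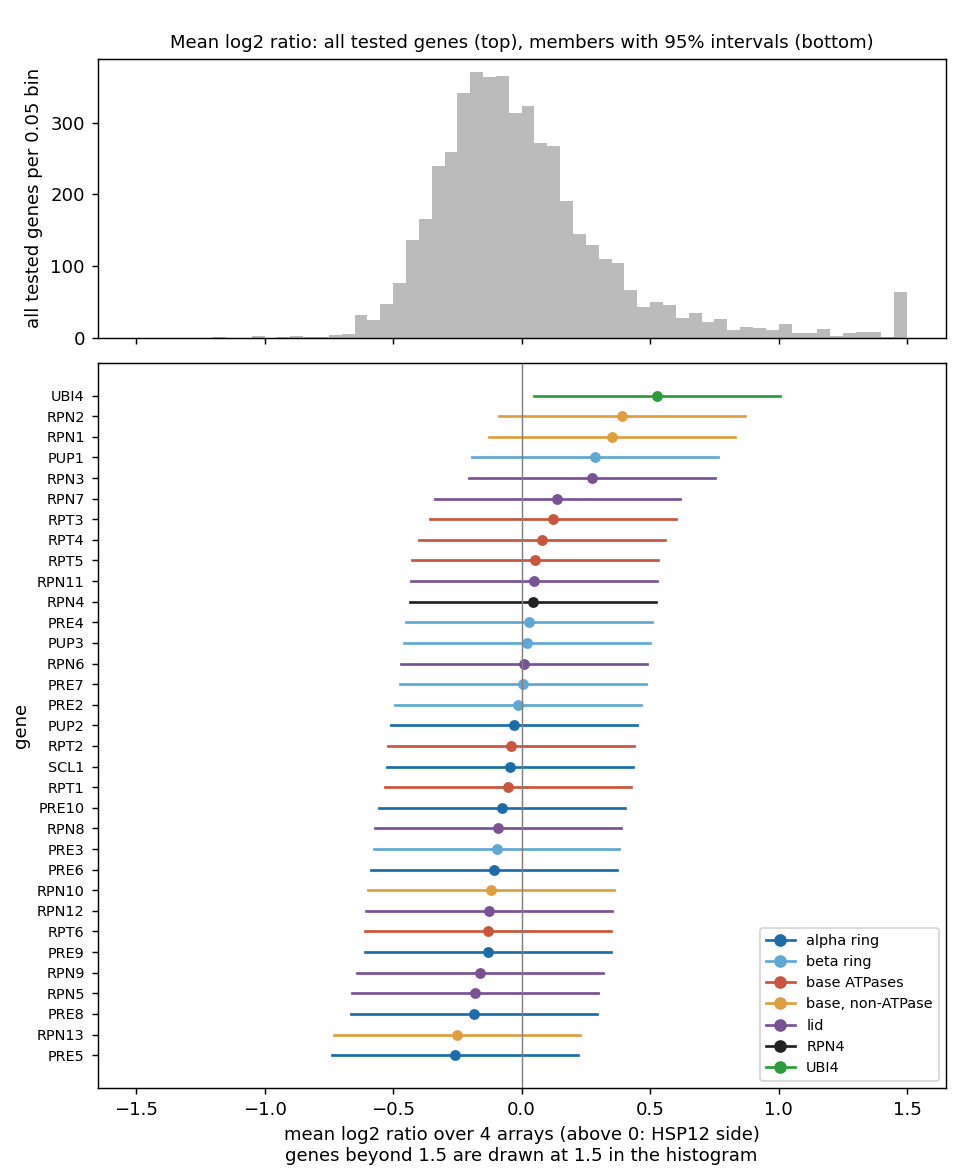
Top, histogram of the mean log2 ratio of the 4788 tested frames; bottom, the mean of each of the 33 tested members (dot) with its 95% interval from limma (line), coloured by place in the proteasome. All intervals except that of UBI4 cross 0, and the other 32 member means lie between -0.26 and 0.39, in the bulk of the histogram.

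Pairing of the arrays decided how many members could be called. Arrays of the same culture are not marked as such, and each gene took the larger p of the 2 possible pairings. With arrays 1 with 4 and 2 with 3 as the only pairing, 3 of 33 members passed, UBI4 (limma adjusted p = 0.00375), RPN2 (0.0193) and RPN1 (0.0280). In that fit 29.6% of all tested frames passed, so the members' count lay below the background there too. With the other pairing alone 0 members passed. The median standard error was 0.10 with arrays 1 with 4 and 2 with 3, and 0.24 with the other pairing. The correlation within a culture that limma estimated was -0.67 and 0.12 in the same order. Which pairing is the true one was not tested.

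The members did not move alike on the 4 arrays. On array 1, 28 of 34 members lay on the HSP12 side, 82.4%, against 47.0% of all tested frames, with a median of 0.15 beside -0.02 for all. Array 2 had 19 of 34 on that side, 55.9% against 43.8% of all frames, and a median of 0.03 beside -0.05. Arrays 3 and 4 had 10 of 33 and 10 of 34 there, 30.3% and 29.4% against 40.7% and 47.8% of all frames. Their medians were -0.10 and -0.07, beside -0.10 and -0.03 for all frames. The members' share thus lay above that of all frames on arrays 1 and 2 and below it on arrays 3 and 4. It was highest on array 1. Of the sum of squares of the members' values, 33.0% went with the mean of the 4 arrays, 34.8% with the contrast of arrays 3 and 4 against 1 and 2, 19.8% with the dye and 12.3% with the remaining contrast. For all tested frames the mean held 57.8%. Leaving out UBI4, the share of the mean among the members was 27.9%.

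Across the 33 members, the arrays also ranked the genes differently. Pearson's r was 0.48 for arrays 3 and 4 and 0.39 for arrays 1 and 3, and between -0.12 and 0.13 for the other 4 pairs. Across all 4788 frames the same pairs of arrays had r between 0.29 and 0.60. Over the members, arrays 1 and 2 had an r of 0.04 and a Spearman's rho of -0.45. These are descriptions across genes, which share arrays, cultures and dyes and are not independent replicates.

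Coding length, the span from start to stop with introns, moved with these differences. On arrays 3 and 4 long genes lay toward the HSP12 side and short ones toward the TIP1 side, relative to arrays 1 and 2. Spearman's rho of that difference with length was 0.55 over the 33 members and 0.62 over 4578 frames. On single arrays 1 to 4 the rho was 0.39, -0.48, 0.47 and 0.53 over the members. Over all frames it was -0.01, -0.18, 0.45 and 0.40. Among the members array 1 thus ran the same way as arrays 3 and 4, and array 2 the other way. For the mean of the 4 arrays the rho was 0.49 over the members and 0.33 over all frames. The tested core particle genes span 618 to 867 bases, the ATPases 1218 to 1404, and RPN2 and RPN1 2838 and 2982. Arrays 3 and 4 minus arrays 1 and 2 gave a median of -0.35 in the core particle and -0.12 in the ATPases, and was 0.78 for RPN2 and 0.68 for RPN1. The shortest member, RPN13 at 471 bases, had -0.67, the most negative of all members.

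A loess trend of length was also removed from each array, which takes out this ordering over all frames by construction. The rho of the difference with length was then -0.01 over all frames and 0.10 over the members. Part of the difference itself remained. Its median went from -0.24 to -0.13 over the 31 tested subunits, from -0.35 to -0.13 in the core particle and from -0.12 to -0.16 in the ATPases. The median of the 4-array means was -0.01 in the core particle and -0.08 in the regulatory particle after the removal, with -0.11 for all frames. RPN2 and RPN1 fell from means of 0.39 and 0.35 to 0.18 and 0.14, and on arrays 3 and 4 from 0.78 and 0.69 to 0.35 and 0.25. PRE5 moved from -0.26 to -0.22 and RPN5 from -0.18 to -0.26. UBI4, at 1146 bases, kept a mean of 0.48, with an adjusted p of 0.212 from limma, but its value on array 4 was then -0.01. After the removal 27, 14, 11 and 12 of 33 members lay on the HSP12 side on arrays 1 to 4. The members' medians were 0.12, -0.05, -0.10 and -0.13, beside -0.06, -0.10, -0.18 and -0.04 for all frames. They thus lay above the median of all frames on arrays 1, 2 and 3 and below it on array 4. The number of members called was 0 in this fit too.

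**Figure D3:**
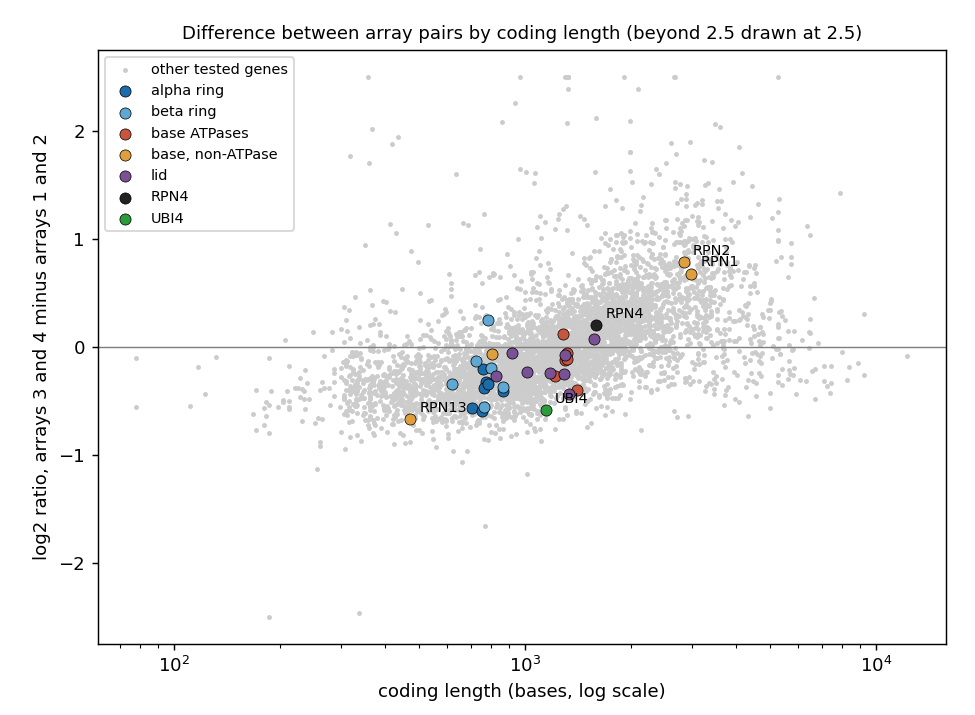
Log2 ratio of arrays 3 and 4 minus that of arrays 1 and 2 (vertical axis) against coding length in bases (log axis) for 4578 frames (grey) and the 33 members (coloured). The members follow the rise with length of the other frames, from -0.67 for RPN13 to 0.78 for RPN2, while UBI4 lies at -0.59.

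The rest of the ubiquitin pathway was described with 8 lists of 68 genes, of which 60 had values on all 4 arrays. Of these 2 changed (limma, adjusted p under 0.05), both on the HSP12 side, beside the 4.55% of all frames, and 36 means lay on that side and 24 on the other. List medians given with the length trend removed stand beside -0.11 for all frames in that fit. The assembly chaperones of the proteasome had 0 of 9 called and a median of -0.06, which was 0.0066 with the length trend removed. NAS2, a chaperone of the base, had the same side on all arrays and a mean of 0.30 ± 0.16 (SD, n = 4; limma adjusted p = 0.724). Of the 9 chaperone means 6 were below 0, down to -0.30 for RPN14. NAS2, SPG5, RAD6 and UFD2 are named for a large mean with the same side on all arrays, so their small SDs follow in part from that choice. Of the proteasome-associated proteins 3 were tested, with 3 above 0 and a median of 0.09, but 1 above 0 and a median of -0.02 with the length trend removed. Among them SPG5, a proteasome regulator of stationary phase, had 0.31 ± 0.12 (limma adjusted p = 0.705). Activating and conjugating enzymes had 0 of 9 called and a median of -0.06 (0.05 on arrays 1 and 2 alone), with RAD6 at -0.37 ± 0.20. Of their means 6 were below 0 and 3 above, up to 0.33 ± 0.46 for UBA1. Ligases had 0 of 6 called and a median of 0.10, which was -0.05 with the length trend removed and -0.17 on arrays 1 and 2 alone, with UFD2, a ubiquitin chain elongating factor, at -0.36 ± 0.20.

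CDC48 (YDL126C), the ATPase that extracts ubiquitinated proteins and hands them to the proteasome, was called on the HSP12 side. Its values were 0.44, -0.03, 1.52 and 1.25 on arrays 1 to 4, high on arrays 3 and 4 and near 0 on array 2. The mean was 0.79 ± 0.71 (SD, n = 4; limma adjusted p = 0.0281), and the call was made in 4 of 15 tested alternatives. The 15 include the fit with arrays not turned, which does not test the treatment. The gene spans 2508 bases, and with the length trend removed its mean was 0.60 and its adjusted p 0.208 by limma. Without array 3 it was 0.55 (adjusted p = 0.241), and it also missed the threshold without array 1, 2 or 4 (0.484, 0.0975 and 0.0763). The other 6 tested members of its list, CDC48 cofactors and shuttle factors, had means from -0.14 (RAD23) to 0.19 (DDI1).

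Among 6 transcription factors known to act at RPN4 or UBI4, all 6 means were on the HSP12 side and 1 was called, beside 42.5% and 4.55% of all frames. On arrays 1 and 2 alone 3 of the 6 were on that side, and the group's median of 0.27 was 0.06 with the length trend removed. MSN4 (YKL062W), an activator of stress genes, had 0.50, 0.44, 0.79 and 1.31 on arrays 1 to 4, with a mean of 0.76 ± 0.40 (SD, n = 4; limma adjusted p = 0.0423). Its paralogue MSN2 (YMR037C) had 0.17, 0.38, 1.18 and 1.03 and a mean of 0.69 ± 0.49, without a call (limma adjusted p = 0.0942). Both lay on the HSP12 side on all arrays and were higher on arrays 3 and 4. MSN4 was called in 8 of the same 15 tested alternatives. It was not called with the length trend removed (mean 0.61, limma adjusted p = 0.170) or without array 1, 2 or 4 (0.233, 0.118 and 0.159). HSF1, PDR3, PDR1 and YAP1 had means of 0.30, 0.23, 0.19 and 0.12. With the length trend removed PDR1 and YAP1 lay at -0.02 and -0.04, beside a median of -0.11 for all frames. Deubiquitinases had 0 of 17 called and a median of 0.07, which was -0.04 with the length trend removed and -0.06 on arrays 1 and 2 alone. The largest means among them were those of UBP15 (0.69 ± 0.24), on the HSP12 side on all arrays with values from 0.38 to 0.94, and UBP7 (0.68 ± 0.64).

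**Figure D4:**
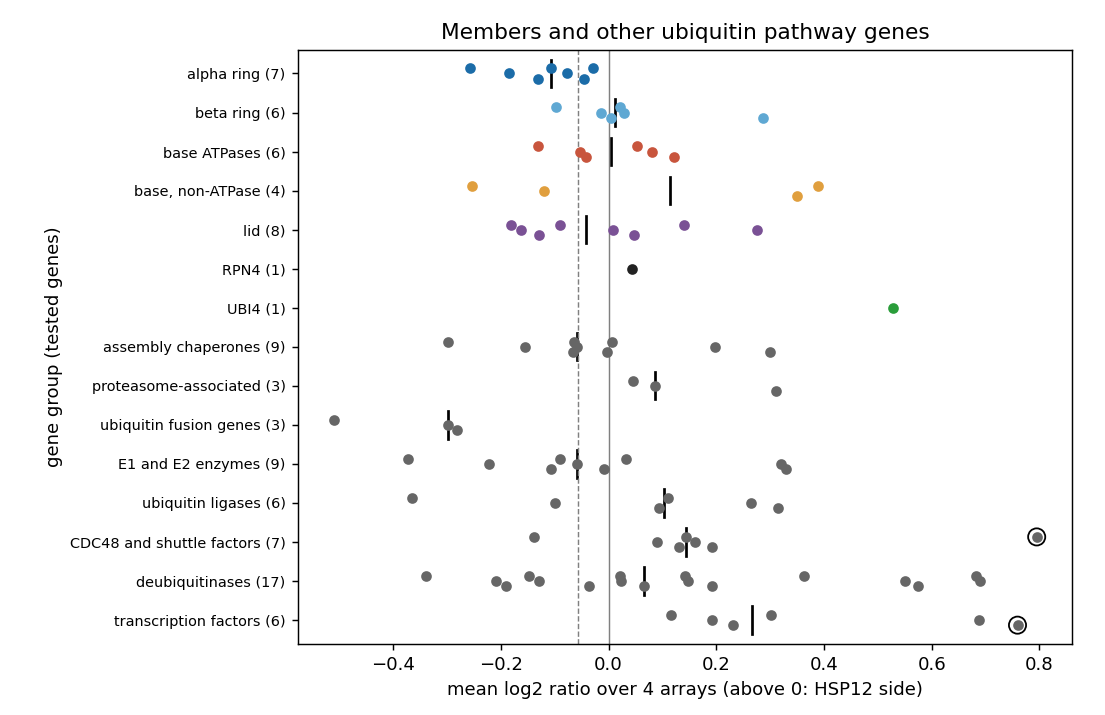
Mean log2 ratio over 4 arrays of each tested member and each tested gene of 8 other ubiquitin pathway lists (dots), with the median of each group (bar), 0 (solid line) and the median of all tested frames (dashed). Circles mark the 2 called genes, CDC48 at 0.79 and MSN4 at 0.76, and the subunit groups lie closer to 0 than UBI4 at 0.53.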

How the data were processed

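The 4 arrays form 1 group of treated against untreated RNA, numbered as in their titles. The deposited values are log ratios of both channels, read as log2 by their size. Their log base, centring, direction, background correction and spot filter are stated nowhere in the sources used here. The deposited medians of arrays 1 to 4 were -0.02, 0.05, -0.10 and 0.02, and no centring was added. Of 6207 frames 5677 were matched to RefSeq R64, 23 through a synonym, and 2 control rows were left out. All 34 members matched, and 0 overlap another annotated gene.

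Arrays 2 and 4 were turned because arrays of opposite dye orientation correlated below 0 (r from -0.60 to -0.29). Arrays of a culture were averaged, and limma 3.58.1 (R 4.3.3; lmFit, eBayes) was fitted over all 4788 frames on all arrays for both pairings of opposite dyes. Each gene took the larger p, adjusted by Benjamini-Hochberg, and the wider interval. In the deciding pairing all genes share a variance of 0.119 and a standard error of 0.24. The fit rests on 2 cultures, and SDs over 4 arrays mix cultures and dyes. Array number limits precision, and signal over background is unknown. Left-out arrays give plain means with p from culture means.

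Members and lists were chosen with earlier results of these data known. Array values were given for RPN4, UBI4, called genes and the highest and lowest member of each subgroup, and for RPN1, RPN7, RPN8, RPN10, RPN11, PRE1, PRE2, RPT5, MSN2 and RPL40B, and means for HSF1, PDR1, PDR3 and YAP1, chosen after their values were seen. No promoter or protein sequences were used here.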

Additional observations from a re-analysis of the deposited data

How the results depend on the processing

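The count of 0 members called was the same under 14 of 15 tested alternatives. Among the 14 is the fit with arrays not turned, which does not test the treatment. With arrays 1 with 4 and 2 with 3 as the only pairing, 3 members passed, UBI4 (mean 0.53, limma adjusted p = 0.00375), RPN2 (0.39) and RPN1. Over all frames that pairing called 1415, against 218 in the reported fit, 6 with arrays not turned, 71 without the length trend, 76, 105, 195 and 143 without arrays 1 to 4 in turn, and 152 to 239 in the other alternatives. The members' median of -0.03 lay between -0.08 and 0.02 when 1 array was left out, and was -0.15 on arrays 3 and 4 alone. Alternatives that changed only pairing, blocks, dye term, variance fit or the frames let in left each tested member's mean as it was. UBI4 kept its side in all the others, with means from 0.16 (arrays not turned) to 0.82, and from 0.40 to 0.70 with an array left out. With arrays not turned a mean is the dye part of the values, not the change with treatment. RPN4 changed side without the length trend (-0.074) and with arrays not turned (-0.088), and ran from -0.092 to 0.12 with an array left out. Without the length trend the median of all frames was -0.11, beside -0.06 in the reported fit, so RPN4 still lay above it. With arrays not turned, PRE3 (0.19), RPN13 (0.23), RPN5 (0.25), RPT3 (-0.15) and RPT6 (0.081) also changed side. PUP2 did so after centring (0.022) and scaling (0.017), and ran from -0.087 to 0.033 with an array left out, as PRE3 did from -0.19 to 0.13. The cause was not tested. Each array already pairs treated with untreated RNA of a divided culture, and with the culture as a random block 0 members were called. In the reported fit, which takes the larger p of both pairings, no change under 0.75 in log2 size was called.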

Other observations

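The 2 control rows of the table hold ratios of spots that carry no yeast gene by their names. The row named for the buffer 3XSSC had -0.19, -0.05, -0.27 and -0.41 on arrays 1 to 4, below 0 on every array, with a mean of -0.23 ± 0.15 (SD, n = 4). Of the 33 tested members, 26 had a mean smaller in size than that of the buffer row. The median size over all tested frames, 0.19, was also smaller than that of the buffer row, so this is not particular to the members. The row named Arabidopsis had -0.01, 0.19 and -0.08 on arrays 1 to 3, with a mean of 0.03, and no value on array 4. The part of the buffer row's common side in the members' ratios was not tested.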
